A study of Mus musculus with 4 samples.

Results

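The 9 phagocytosis genes followed here across the cell classes of the mouse forebrain in a stroke model were the receptors Mertk, Axl, Trem2, Clec7a, Cd36 and Megf10, the Trem2 adaptor Tyrobp, and the bridging ligands Gas6 and Pros1. They were taken by symbol from the gene lists of the count tables, where they make up 9 of 46983 genes and each symbol stands on 1 row. The experiment was single-nucleus RNA sequencing of male C57Black/6 mice aged 3 months, in which the middle cerebral artery was coagulated and cut for a permanent occlusion (MCAO), which causes a cortical stroke. Of the 4 libraries, 1 was a sham control and the others were collected at day 1, at day 3 and at day 7 after MCAO, and each was made from 3 pooled forebrain hemispheres. The comparison asks which cells carried the RNA of these genes and how its level differed from the sham control as the lesion aged.

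Dying cells and debris are cleared in the brain mainly by microglia and astrocytes, with macrophages joining after injury. Mertk and Axl are receptor tyrosine kinases of the TAM family that bind the vitamin K dependent proteins Gas6 and Pros1 (protein S), which in turn bridge to phosphatidylserine exposed on the dying cell. Trem2 senses lipids and lipoproteins and signals through Tyrobp (DAP12), Clec7a (dectin-1) binds beta-glucans and marks activated microglia, Cd36 is a scavenger receptor for oxidised lipids, and Megf10 is an engulfment receptor known from astrocytes.

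There was 1 library per group, so no difference between time points has a replicate check and no p-value is given. Levels are CPM, which scale the UMIs of a gene to 1000000 of the UMIs summed over the nuclei of 1 class in 1 library, and all intervals are 95% intervals that cover counting error only. The libraries held 23285489 to 42963698 UMIs, and 1018 to 3090 nuclei per library were kept (7798 in all). Of the 7943 nuclei called before doublets were removed, with 7934 distinct barcodes, 9 barcodes occurred in more than 1 library. The numbers of nuclei that the study lists by time point are close to those kept here if its day 3 and day 7 are swapped, and far from them otherwise. The deposited labels were kept here, and every statement on day 3 or day 7 rests on them. The labels' protocol gives intact cortex as control tissue, whereas the sham control library held 352 nuclei with the markers of striatal projection neurons.

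Classes were named from marker genes and are written as "microglia-like" and so on. The microglia-like class held 87, 44, 188 and 93 nuclei in the sham control, day 1, day 3 and day 7 libraries, with a median of 1795, 3564, 1725.5 and 1958 UMIs per nucleus. All 17 microglia markers present in the files were detected in it, with a summed level of 10393 CPM in the sham control, 6652 CPM on day 1, 9696 CPM on day 3 and 9388 CPM on day 7. Markers of border macrophages (7 of 8 detected, with Lyve1 at 0) summed to 333 CPM in the sham control, 392 CPM on day 1, 752 CPM on day 3 and 575 CPM on day 7. Markers of neutrophils and monocytes (7 of 9 detected, with Ly6c2 and Retnlg at 0) summed to 346 to 583 CPM, those of lymphocytes (3 of 9 detected) to 39.1 to 87.5 CPM, and those of oligodendrocytes (15 of 15 detected) to 1706 to 2472 CPM. Markers of glutamatergic neurons summed to 771 to 1161 CPM, those of GABAergic interneurons to 833 to 1338 CPM. Those of striatal projection neurons summed to 782 to 1646 CPM. Markers of other neurons summed to 5091, 7014, 3844 and 5038 CPM in time order, highest on day 1. The part of these other cells in the levels below was not tested, except where a value is given.

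In the nuclei of all 4 libraries, Mertk had 5233 UMIs, Gas6 2632, Megf10 1588, Pros1 901, Tyrobp 423, Trem2 374, Axl 243, Cd36 86 and Clec7a 17. The microglia-like nuclei, with 1.73% of all nuclear UMIs, held 52.1% of the Trem2 UMIs (interval 46.9% to 57.3%), 35.2% of the Tyrobp UMIs (30.7% to 40.0%) and 28.2% of the Pros1 UMIs (25.3% to 31.3%). They also held 50% of the Cd36 UMIs (39.0% to 61.0%) and 64.7% of the few Clec7a UMIs (38.3% to 85.8%). Mertk was shared between the astrocyte-like class, with 44.6% (43.2% to 45.9%) of its UMIs, and the microglia-like class, with 32.7% (31.4% to 34.0%). Axl lay mainly in astrocyte-like (34.2%, 28.2% to 40.5%) and endothelial-like nuclei (15.2%, 11% to 20.4%). Megf10 lay mainly in oligodendrocyte-like nuclei, with 41.0% (38.6% to 43.5%), ahead of astrocyte-like nuclei, with 23.6% (21.5% to 25.8%). Gas6 stood apart: glutamatergic-neuron-like nuclei held 31.5% of its UMIs (29.7% to 33.3%), against 36.5% of the UMIs of all genes.

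**Figure D1:**
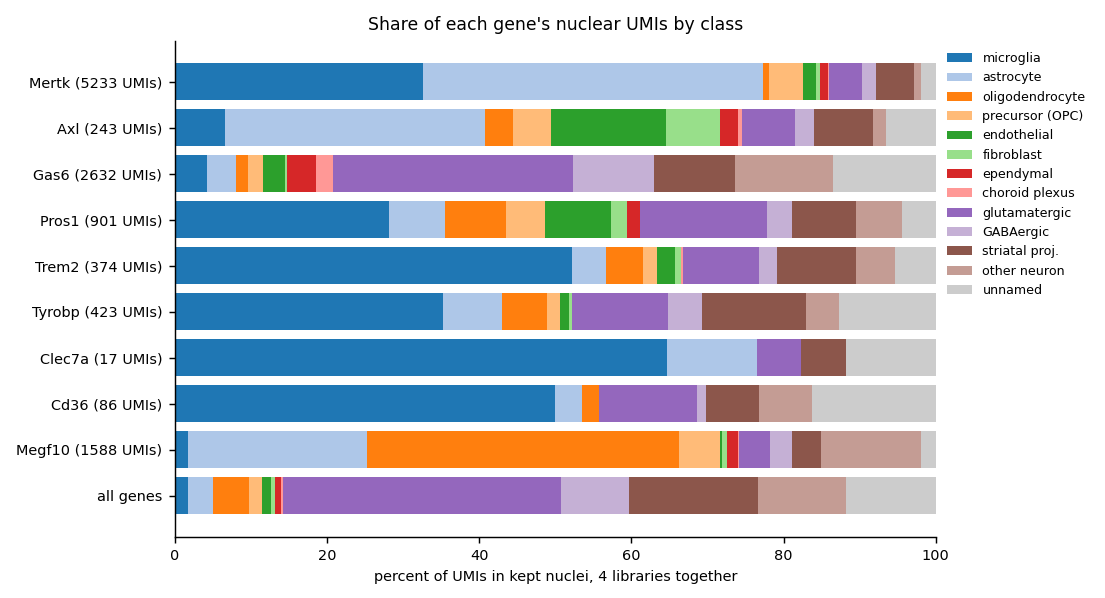
Share of each gene's nuclear UMIs, in percent over the 4 libraries together, that lay in each cell class (stacked bars), beside the share of the UMIs of all genes in the same class. Microglia-like nuclei hold 52.1% of the Trem2 UMIs and 1.73% of all UMIs, whereas the Gas6 bar is close to the bar of all genes.

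Mertk was the TAM receptor with most UMIs among the 9 genes. In microglia-like nuclei its level was 1642 CPM in the sham control (interval 1470 to 1827, 335 UMIs). It was 954 CPM on day 1 (834 to 1086, 229 UMIs) and 1834 CPM on day 3 (1706 to 1969, 761 UMIs). On day 7 it was 1506 CPM (1359 to 1664, 385 UMIs). Day 1 was the low library, and its interval overlapped none of the other 3. The summed microglia markers of the class were also lowest on day 1, at 6652 CPM against 10393 CPM in the sham control, and their part in the Mertk difference was not tested. The ratio to the sham control was 0.581 on day 1 (0.489 to 0.689), 1.12 on day 3 (0.981 to 1.27) and 0.917 on day 7 (0.790 to 1.07). The day 1 nuclei were deeper than the others, and the size of the day 1 difference depended on how nuclei were weighted: the ratio was 0.707 as a mean over nuclei and 0.808 with every nucleus thinned to 1000 UMIs. After that thinning, 75.9% of sham control, 72.7% of day 1, 72.3% of day 3 and 77.4% of day 7 microglia-like nuclei had a Mertk UMI (unthinned 92.0%, 93.2%, 85.6% and 94.6%), and the intervals of these shares overlapped. In glutamatergic-neuron-like nuclei, with a median of 8694 to 15800 UMIs per nucleus, 3.77% to 4.52% had one without thinning.

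In astrocyte-like nuclei the Mertk level was 919 CPM in the sham control (845 to 999, 559 UMIs), 1067 CPM on day 1 (963 to 1180, 381 UMIs), 1306 CPM on day 3 (1225 to 1392, 962 UMIs) and 1044 CPM on day 7 (948 to 1147, 431 UMIs). Day 3 was the high library and its interval lay above those of the other 3. The summed astrocyte markers of the class were also highest on day 3, at 14460, 12541, 17166 and 15427.5 CPM in time order. Markers of other neurons were lowest there on day 3, at 4149, 6178, 2284 and 3222 CPM. The part of both in the Mertk difference was not tested. The ratio to the sham control was 1.42 on day 3 (1.28 to 1.58), and 1.27 to 1.47 under the alternative settings. On day 1 it was 1.16 (1.02 to 1.33), and it fell below 1, to 0.908, with nuclei thinned to 1000 UMIs. On day 7 it was 1.14 (0.999 to 1.29). The Mertk level was thus highest on day 3 in each of the 2 highest classes, though the microglia-like day 3 interval overlapped that of the sham control. It was lowest on day 1 in microglia-like nuclei and in the sham control in astrocyte-like nuclei.

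Outside these classes Mertk was lower. Oligodendrocyte-precursor-like nuclei had 225 CPM in the sham control, 273 CPM on day 1, 182 CPM on day 3 and 116 CPM on day 7. The day 7 interval (76.3 to 168) lay below that of the sham control (173 to 288). The day 7 ratio was 0.514 (0.315 to 0.818), or 0.856 after thinning. In this class the oligodendrocyte markers summed to 869, 1742, 2325 and 2448 CPM in time order. Those of newly formed oligodendrocytes summed to 2396, 1977, 2217 and 4432 CPM. The part of these cells in the difference was not tested. Endothelial-like nuclei had 149 CPM in the sham control, 118 CPM on day 3 and 116 CPM on day 7, with overlapping intervals, and only 6 nuclei on day 1. Over the 12 named classes, ordered by the median of the libraries, the microglia-like range (954 to 1834 CPM) overlapped the astrocyte-like range (919 to 1306 CPM), and no other class overlapped either. In oligodendrocyte-like nuclei, 8, 2, 25 and 10 UMIs gave 10.2 CPM in the sham control, 3.65 CPM on day 1, 25.7 CPM on day 3 and 14.5 CPM on day 7. The day 3 ratio of 2.53 (1.11 to 6.49) ranged from 1.64 to 3.15 under the alternative settings.

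**Figure D2:**
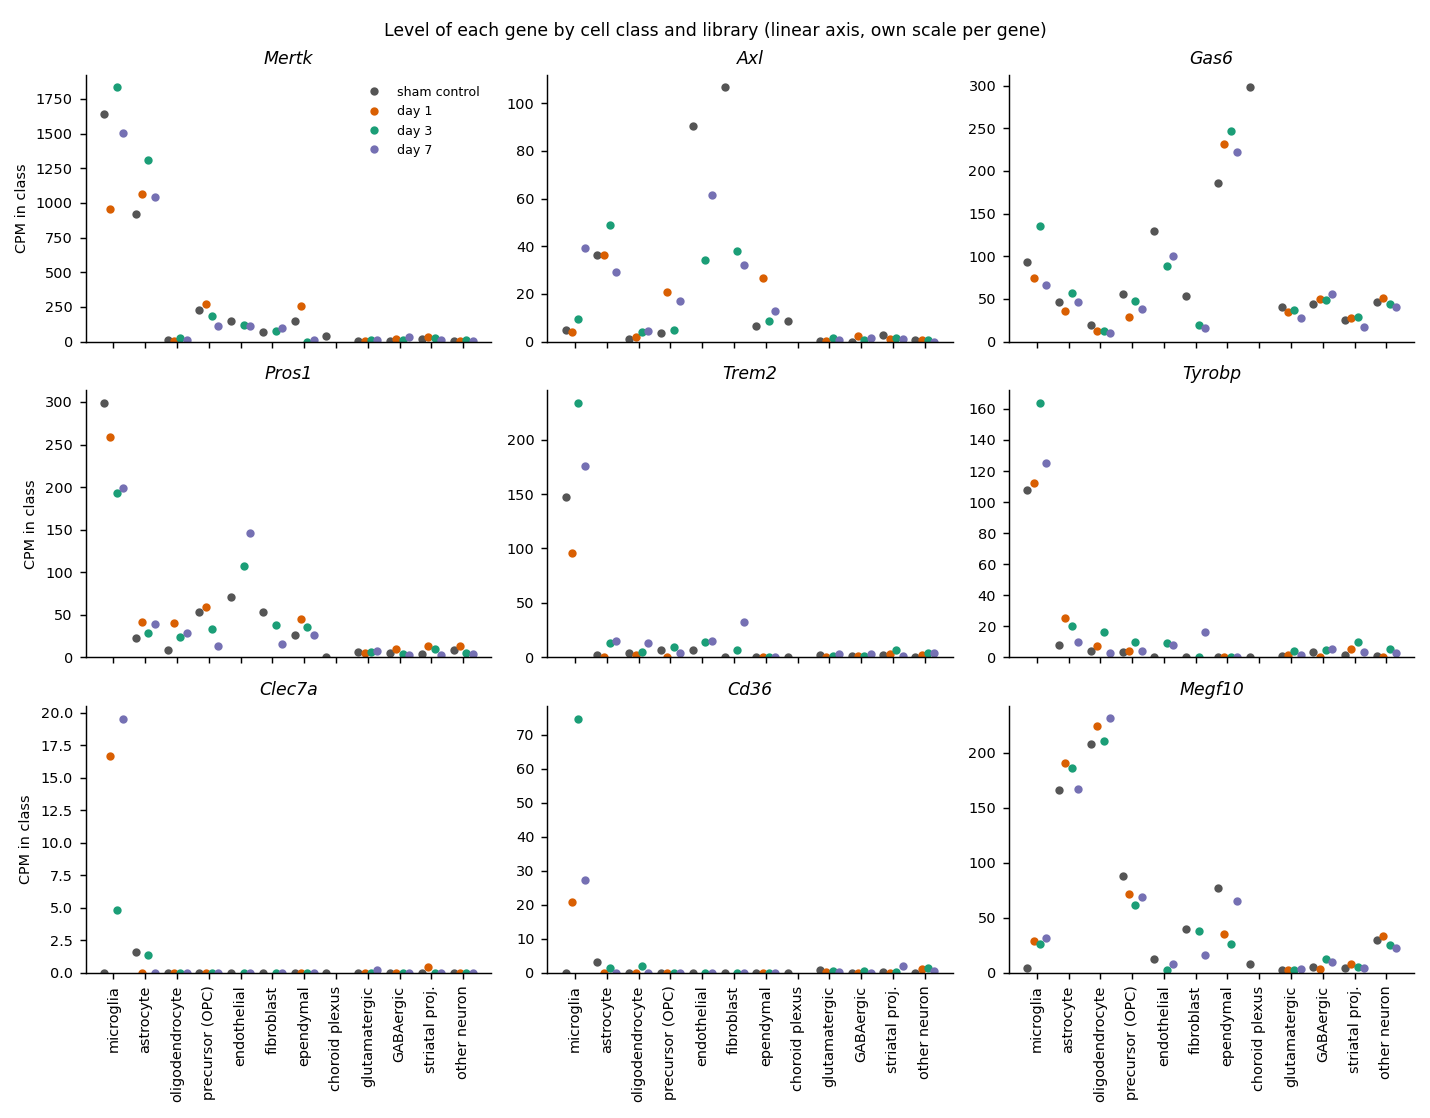
Level of each gene in CPM of the class sum by cell class, 1 point per library for class sums of at least 50000 UMIs. Mertk is highest in microglia-like and astrocyte-like nuclei, Trem2 and Tyrobp in microglia-like nuclei, and Megf10 in oligodendrocyte-like nuclei, where its 4 points lie between 208 and 231 CPM.

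Axl, the other TAM receptor among the 9 genes, had few UMIs in microglia-like nuclei. It had 1 UMI in the sham control, 1 on day 1, 4 on day 3 and 10 on day 7, which gives 4.90 CPM, 4.17 CPM, 9.64 CPM and 39.1 CPM. The day 7 interval (18.8 to 71.9 CPM) overlapped that of the sham control (0.124 to 27.3 CPM), and the ratio of 7.98 rests on 1 sham control UMI (1.14 to 346). In the day 7 library the microglia-like nuclei held 18.2% of the Axl UMIs (9.08% to 30.9%) and the astrocyte-like nuclei 21.8% (11.8% to 35.0%). All 10 day 7 UMIs lay in the larger microglia-like cluster, in 7 of its nuclei. In astrocyte-like nuclei Axl was at 36.2 CPM in the sham control, 36.4 CPM on day 1, 48.9 CPM on day 3 and 29.1 CPM on day 7, with overlapping intervals and ratios that ran from 0.803 on day 7 (0.362 to 1.70) to 1.35 on day 3 (0.774 to 2.41). The day 7 ratio turned to 2.07 with nuclei thinned to 1000 UMIs. Endothelial-like nuclei had the highest median level, with 90.6 CPM in the sham control (14 UMIs), 0 UMIs in the 6 nuclei of day 1 (up to 113 CPM), 34.2 CPM on day 3 (15 UMIs) and 61.7 CPM on day 7 (8 UMIs). The day 3 ratio was 0.377 (0.17 to 0.843) over summed counts but 0.997 as a mean over nuclei. Endothelial markers summed to 18210 to 27516 CPM in this class. Mural cell markers summed to 7605, 4120, 4407 and 7232 CPM in it, in time order. Astrocyte markers summed to 3256, 922, 1194 and 2606 CPM, and fibroblast markers to 757, 92.2, 458 and 802 CPM. The part of these other cells in the levels of the endothelial-like class was not tested.

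Gas6, the ligand that binds all TAM receptors, was found in every class. Its median over libraries was highest in ependymal-like nuclei among the classes with more than 1 class sum of at least 50000 UMIs. These nuclei had 186 CPM in the sham control (125 to 267) and 232 CPM on day 1 (152 to 340). They had 247 CPM on day 3 (164 to 356) and 222 CPM on day 7 (129 to 355), with overlapping intervals. Choroid-plexus-like nuclei, with 1 such sum, had 298 CPM in the sham control (35 UMIs) and 0 UMIs on day 1. They had 258 CPM on day 3 (6 UMIs) and 549 CPM on day 7 (17 UMIs), from 8, 2, 6 and 3 nuclei in time order. Microglia-like nuclei had 93.1 CPM in the sham control (19 UMIs), 75.0 CPM on day 1 (18 UMIs), 135 CPM on day 3 (56 UMIs) and 66.5 CPM on day 7 (17 UMIs). The 4 intervals overlapped, with ratios of 0.805 (0.399 to 1.62), 1.45 (0.848 to 2.58) and 0.714 (0.349 to 1.45), the first of which reached 1.24 under the alternative settings. Astrocyte-like nuclei had 46.0 CPM, 36.4 CPM, 57.0 CPM and 46.0 CPM in the same order, also with overlapping intervals. Oligodendrocyte-like nuclei were lowest, with 10.2 to 19.0 CPM, close to the 8.90 to 12.9 CPM that free RNA alone would give if every droplet of a library held equally much of it.

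Pros1, the ligand also known as an anticoagulant in blood, was highest in microglia-like nuclei, where its ratio to the sham control was below 1 on day 3 and day 7 with the whole interval. Its level was 299 CPM in the sham control (229 to 384, 61 UMIs), 258 CPM on day 1 (198 to 331, 62 UMIs), 193 CPM on day 3 (153 to 240, 80 UMIs) and 199 CPM on day 7 (149 to 262, 51 UMIs). The sham control was the highest library, though its interval overlapped the others. The ratio was 0.864 on day 1 (0.597 to 1.25), and up to 1.09 under the alternative settings, 0.645 on day 3 (0.457 to 0.915) and 0.667 on day 7 (0.451 to 0.984). After thinning, 28.7% of the sham control, 29.5% of the day 1, 16.5% of the day 3 and 18.3% of the day 7 nuclei had a Pros1 UMI, with overlapping intervals (unthinned 47.1%, 72.7%, 31.4% and 36.6%).

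In oligodendrocyte-like nuclei the Pros1 ratios lay above 1. There the level was 8.89 CPM in the sham control (3.57 to 18.3, 7 UMIs), 40.1 CPM on day 1 (25.2 to 60.8, 22 UMIs), 23.6 CPM on day 3 (15 to 35.5, 23 UMIs) and 29.1 CPM on day 7 (17.8 to 44.9, 20 UMIs). The sham control was lowest, and its interval was clear of that of day 1. The ratio was 4.52 on day 1 (1.86 to 12.5), 2.66 on day 3 (1.10 to 7.34) and 3.27 on day 7 (1.33 to 9.16). Under the alternative settings these ranged from 3.11 to 5.41, from 2.08 to 4.50 and from 2.30 to 4.49. Equal free RNA in every droplet would give up to 3.53 CPM of Pros1 in this class, and the summed microglia markers were at 136, 173, 228 and 189 CPM in it. Endothelial-like nuclei had 71.2 CPM in the sham control, 107 CPM on day 3 and 146 CPM on day 7 (2 UMIs on day 1), with ratios of 1.50 (0.769 to 3.22) and 2.06 (0.931 to 4.79).

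Trem2, the lipid receptor of microglia, had 147 CPM in microglia-like nuclei of the sham control (99.2 to 210, 30 UMIs), 95.8 CPM on day 1 (60.7 to 144, 23 UMIs), 234 CPM on day 3 (190 to 285, 97 UMIs) and 176 CPM on day 7 (128 to 236, 45 UMIs). Day 1 was lowest and day 3 highest, and only these 2 intervals were clear of each other. The ratio to the sham control was 0.652 on day 1 (0.361 to 1.16), 1.59 on day 3 (1.05 to 2.48) and 1.20 on day 7 (0.738 to 1.97). The microglia-like range (95.8 to 234 CPM) did not overlap that of the next class, the endothelial-like (6.47 to 15.4 CPM).

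Tyrobp, the adaptor through which Trem2 signals, had 108 CPM in microglia-like nuclei of the sham control (67.6 to 163, 22 UMIs), 112 CPM on day 1 (74.1 to 164, 27 UMIs), 164 CPM on day 3 (127 to 208, 68 UMIs) and 125 CPM on day 7 (85.6 to 177, 32 UMIs). All 4 intervals overlapped, and the ratios were 1.04 (0.572 to 1.92), 1.52 (0.928 to 2.58) and 1.16 (0.654 to 2.10). In astrocyte-like nuclei 5, 9, 15 and 4 UMIs gave 8.22 CPM, 25.2 CPM, 20.4 CPM and 9.69 CPM, and the day 3 ratio was 2.48 (0.856 to 8.71), or 1.79 after subtraction of free RNA. In oligodendrocyte-like nuclei 3 UMIs in the sham control and 16 on day 3 gave a ratio of 4.32 (1.24 to 23.1), or 4.23 to 7.49 under the alternative settings, just under the minimum of 20 UMIs used for the counts of ratios past 2-fold. In glutamatergic-neuron-like nuclei, which are not known to express Tyrobp, the day 3 level was 4.34 CPM (3.04 to 6.01), beside 3.11 CPM that equal free RNA in every droplet would give. The part of free RNA in the astrocyte-like and glutamatergic-neuron-like levels was not tested beyond the subtraction.

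The free RNA itself held more of both genes on day 3 and day 7 after MCAO. In barcodes of at most 100 UMIs, which hold no nucleus, Trem2 was at 21.4 CPM in the sham control (14.9 to 29.8), 24.5 CPM on day 1 (18.4 to 31.9), 67.0 CPM on day 3 (55.7 to 79.9) and 71.5 CPM on day 7 (59.5 to 85.3). The day 3 and day 7 intervals lay above those of the sham control and day 1, with ratios of 3.13 (2.13 to 4.69) and 3.34 (2.28 to 5.01). Tyrobp was at 42.9 CPM in the sham control (33.4 to 54.1), 63.4 CPM on day 1 (53.3 to 74.8), 97.8 CPM on day 3 (84.1 to 113) and 111 CPM on day 7 (96.2 to 128), with ratios of 1.48 (1.10 to 2.00), 2.28 (1.72 to 3.05) and 2.60 (1.97 to 3.47). In barcodes of more than 100 and at most 1000 UMIs, chosen after seeing the data, the Trem2 ratios were 1.14, 3.06 and 3.01, and the Tyrobp ratios 1.65, 3.76 and 2.89. In microglia-like nuclei the day 3 ratios of 1.59 and 1.52 were smaller. Mertk in barcodes of at most 100 UMIs was at 41.6 CPM in the sham control, with ratios of 0.718 on day 1 (0.504 to 1.02), 1.49 on day 3 (1.10 to 2.05) and 1.21 on day 7 (0.868 to 1.68). In barcodes of more than 100 UMIs its ratios were 0.857 (0.725 to 1.01), 1.52 (1.34 to 1.72) and 1.52 (1.33 to 1.75), so that free Mertk RNA was also higher on day 3 in both sets and on day 7 in the second. Gas6 in barcodes of at most 100 UMIs was at 88.2 CPM in the sham control, with ratios of 0.971 (0.778 to 1.21), 0.815 (0.639 to 1.04) and 0.785 (0.611 to 1.01). The source of the free RNA was not tested.

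**Figure D3:**
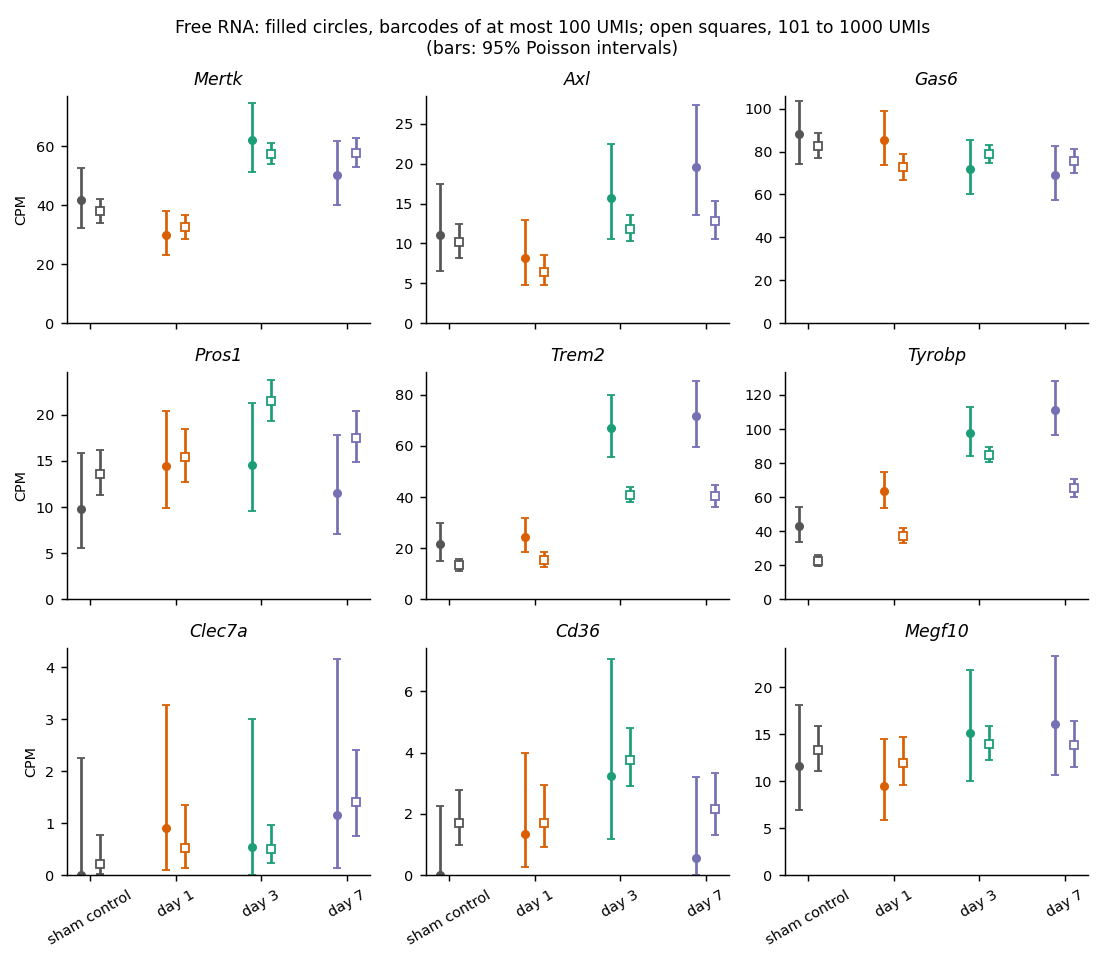
Level of each gene in free RNA, in CPM, by library: filled circles for barcodes of at most 100 UMIs, open squares for barcodes of more than 100 and at most 1000 UMIs, with 95% counting intervals. Trem2 and Tyrobp are above the sham control on day 3 and day 7, Trem2 at 67.0 and 71.5 CPM against 21.4 CPM in barcodes of at most 100 UMIs.

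**Figure D4:**
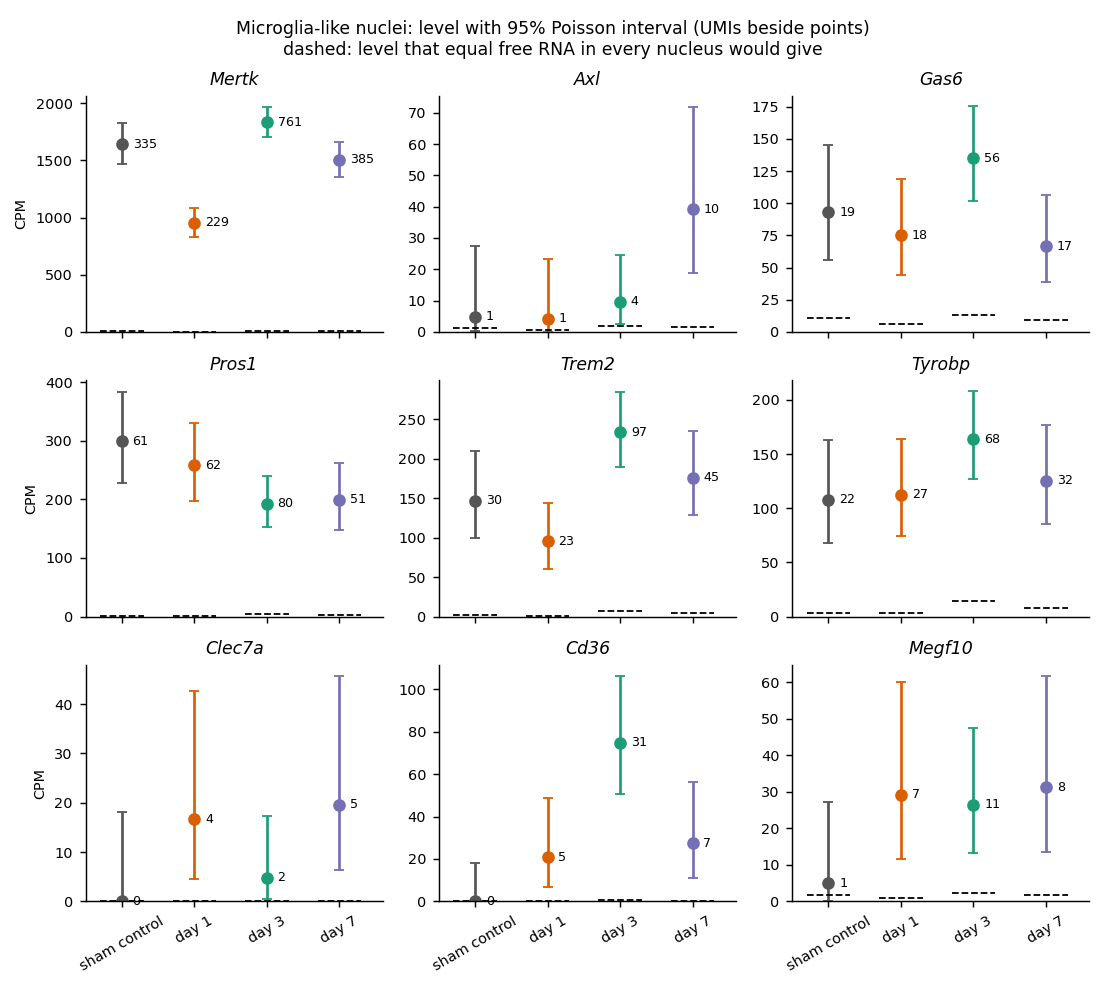
Level of each gene in microglia-like nuclei, in CPM with exact Poisson 95% intervals, by library, with the UMIs beside each point and a dashed line at the level that equal free RNA in every droplet would give. Mertk is lowest on day 1 at 954 CPM, Pros1 is highest in the sham control at 299 CPM, and Cd36 has 0 UMIs in the sham control and 31 on day 3.

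Cd36, the scavenger receptor, was counted in microglia-like nuclei of the 3 MCAO libraries and not of the sham control. It had 0 UMIs in the sham control (up to 18.1 CPM), 5 on day 1 (20.8 CPM, 6.76 to 48.6), 31 on day 3 (74.7 CPM, 50.8 to 106) and 7 on day 7 (27.4 CPM, 11 to 56.4). The day 3 interval was clear of the upper limit in the sham control. Against a floor of 3 UMIs in the sham control sum the level was at least 5.08-fold higher, and the exact counting interval of the ratio began at 3.89. The UMIs lay in 1, 8 and 3 nuclei, and 1 day 3 nucleus held 18 of the 31. Without it 13 UMIs remained, at 31.3 CPM (16.7 to 53.6), which is under the minimum of 20 UMIs and no longer clear of the sham control limit. Of the 12 nuclei with a Cd36 UMI, 10 also had UMIs of border macrophage markers and all 12 of microglia markers. On day 3 the border macrophage markers summed to 2329 CPM in the 8 nuclei with Cd36 (1734 to 3063) and to 664 CPM in the 180 without (586 to 750), and the microglia markers to 4887 CPM against 9964 CPM. The nuclei with Cd36 were deeper, with a median of 3145 against 1715 UMIs. No Cd36 UMI was found in the endothelial-like nuclei of any library.

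Clec7a was too rare for a comparison. Microglia-like nuclei had 0 UMIs of it in the sham control, 4 on day 1, 2 on day 3 and 5 on day 7, in 0, 2, 2 and 4 nuclei, and in the sham control a count of 0 in 87 nuclei allows a share of up to 4.15% of nuclei with a UMI. The upper limit in the sham control was 18.1 CPM, within the intervals of day 1 (4.54 to 42.7 CPM) and day 7 (6.35 to 45.6 CPM).

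Megf10, known as an engulfment receptor of astrocytes, was at its highest level in oligodendrocyte-like nuclei, with overlapping intervals in all libraries. It had 208 CPM in the sham control (178 to 243, 164 UMIs), 224 CPM on day 1 (187 to 268, 123 UMIs), 211 CPM on day 3 (183 to 242, 205 UMIs) and 231 CPM on day 7 (197 to 270, 159 UMIs). The ratios were 1.08 on day 1 (0.846 to 1.37) and 1.11 on day 7 (0.887 to 1.39), and the day 3 ratio lay between 0.820 and 1.25. Astrocyte-like nuclei had 166 CPM in the sham control (135 to 202), 191 CPM on day 1 (148 to 242), 186 CPM on day 3 (156 to 220) and 167 CPM on day 7 (130 to 212), all overlapping. The range over libraries in oligodendrocyte-like nuclei (208 to 231 CPM) lay above that in astrocyte-like nuclei (166 to 191 CPM), and that in turn above the oligodendrocyte-precursor-like range (62.1 to 87.9 CPM). After thinning, 18.0% to 19.5% of oligodendrocyte-like and 14.2% to 18.7% of astrocyte-like nuclei had a Megf10 UMI (unthinned 32.5% to 45.3% and 42.1% to 58.2%), against 2.24% to 3.72% of the deeper glutamatergic-neuron-like nuclei unthinned.

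The few Megf10 UMIs of microglia-like nuclei, 1, 7, 11 and 8 in time order, came mostly from 1 of the 2 clusters of that class. The smaller cluster, of 31 nuclei, held 1, 6, 11 and 7 of them, and the larger, of 381 nuclei, held 0, 1, 0 and 1. Oligodendrocyte markers summed to 9947 to 13816 CPM in the smaller cluster and to 600 to 982 CPM in the larger one. Without the smaller cluster, an alternative chosen after seeing the data, the Mertk ratio on day 1 was 0.562 and the Pros1 ratios on day 3 and day 7 were 0.601 and 0.606.

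A 2-fold ratio was counted only for genes with at least 20 UMIs in both sums together, which a gene may reach through the group where it is high. Over the 12 named classes and 3 days, 119 combinations of the 9 genes with a class and a day had that many, and Clec7a had none. Of these, 17 were at least 2-fold higher than the sham control and 5 at least 2-fold lower, against 3.6% and 3.69% of the combinations of all genes. In the 4 neuron classes 10 of 47 combinations were higher and 2 lower, against 2.11% and 2.03% of the combinations of all genes there. The Trem2 ratio of 4.06 in striatal-projection-neuron-like nuclei on day 3 (1.62 to 12.1), for example, which ranged from 3.74 to 8.27 under the alternative settings, stood on 7.13 CPM, beside 1.76 CPM that equal free RNA in every droplet would give. The Tyrobp ratio of 5.96 in glutamatergic-neuron-like nuclei on day 3 (2.14 to 23.1) ranged from 4.04 to 11.3 under the alternative settings. Megf10 had a ratio of 2.63 in GABAergic-interneuron-like nuclei on day 3 (1.13 to 6.83), at 13.02 CPM, which ranged from 1.10 to 4.30 under the alternative settings and fell below 2-fold with clusters at resolution 1.2. In microglia-like nuclei, none of the 5 measured genes passed on day 1, when 7.9% of all measured genes were at least 2-fold higher and 5.72% at least 2-fold lower. On day 3, 1 of 6 (Cd36) was higher and none lower, against 7.11% and 4.25% of all genes, and on day 7 none of 5 passed, against 5.69% and 4.7%. The median log2 ratio of the measured genes was -0.31 on day 1, 0.57 on day 3 and -0.12 on day 7, beside 0.02, 0.02 and 0.01 over all genes.

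In astrocyte-like nuclei none of 5 passed on day 1 (all genes: 3.72% higher, 6.6% lower), 1 of 6 (Tyrobp) was higher on day 3 (3.18% higher, 4.89% lower) and none of 5 passed on day 7 (3.29% higher, 6.64% lower). In oligodendrocyte-like nuclei 1 of 3 (Pros1) was higher on day 1 (3.18% higher, 5.25% lower), 2 of 4 (Pros1 and Mertk) on day 3 (3% higher, 2.15% lower) and 1 of 3 (Pros1) on day 7 (1.98% higher, 4.09% lower), and none was lower. In free RNA none of 7 passed on day 1 (3.17% higher, 1.86% lower), while Trem2 and Tyrobp, 2 of 7, were higher on day 3 (1.8% higher, 2.18% lower) and on day 7 (2.7% higher, 1.72% lower).

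**Figure D5:**
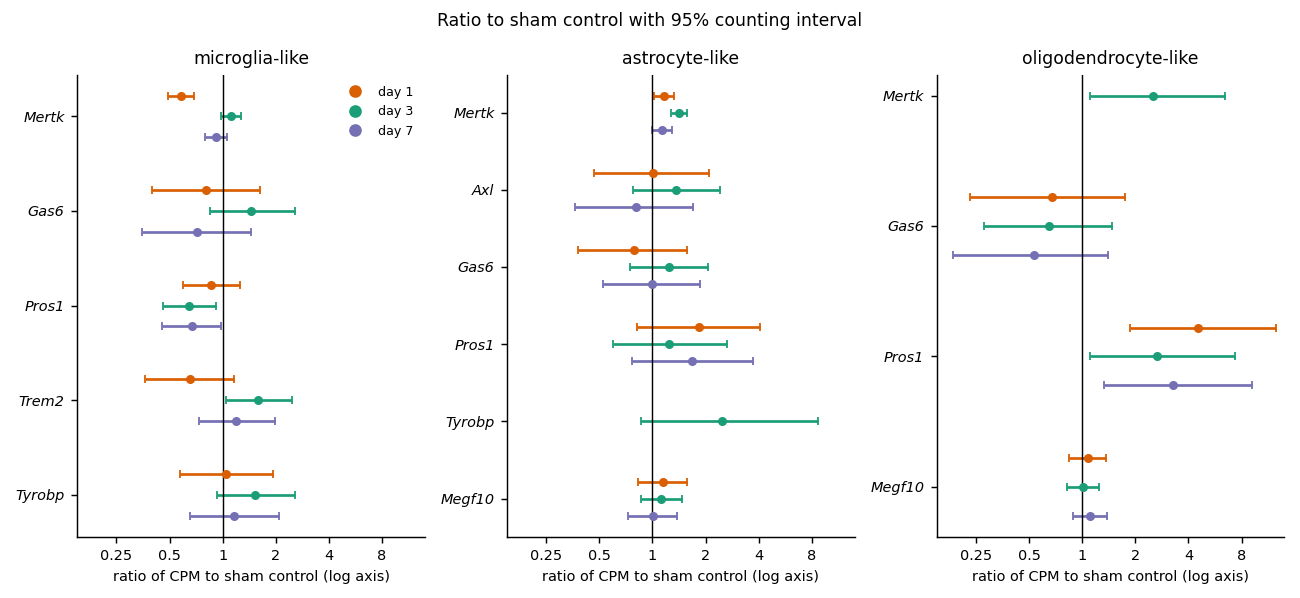
Ratio of each gene's level at the 3 time points to the sham control in microglia-like, astrocyte-like and oligodendrocyte-like nuclei, on a log axis, with exact 95% counting intervals. The interval lies below 1 for Mertk on day 1 and for Pros1 on day 3 and day 7 in microglia-like nuclei, and above 1 for Pros1 at all 3 days in oligodendrocyte-like nuclei.

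Other genes of engulfment were taken from 7 lists with 65 genes in all, chosen with earlier results of these data known. In microglia-like nuclei 4 of 34 measured list genes were at least 2-fold higher and 4 at least 2-fold lower on day 1, 5 of 38 higher and 0 lower on day 3, and 3 of 30 higher and 1 lower on day 7. In astrocyte-like nuclei 1 of 25 was higher and 2 lower on day 1, 1 of 25 higher and 1 lower on day 3, and 1 of 26 higher and 1 lower on day 7. These counts stand beside the shares of all genes given above.

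The list closest to the bridging system, the other phosphatidylserine receptors and bridging molecules, had 3 of 7 measured genes higher and 1 lower in microglia-like nuclei on day 1 (median log2 ratio 0.47), 2 of 8 higher on day 3 (0.43) and none of 4 on day 7 (-0.17). Cd300lf, a phosphatidylserine receptor, had 3 UMIs in the sham control and 22 on day 1, a ratio of 6.23 (1.87 to 32.5), and 33 on day 3, a ratio of 5.41 (1.70 to 27.6). Its inhibitory relative Cd300a fell to 3 UMIs on day 1 from 20, a ratio of 0.128 (0.0243 to 0.430). Lgals3 (galectin-3), proposed as a bridging ligand for Mertk, had 0 UMIs in the sham control, 23 on day 1, of which 95.7% lay in 1 nucleus, and 58 in 25 nuclei on day 3, at least 9.51-fold higher against the floor of 3 UMIs, with an exact interval from 7.49. On day 3 that was 140 CPM, and on day 7 Lgals3 was at 35.2 CPM from 9 UMIs.

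Among the genes of Trem2 and Tyrobp signalling and ligands, none of 8 was higher and 2 were lower in microglia-like nuclei on day 1 (median log2 ratio -0.51), 1 of 9 was higher on day 3 (0.22), and 1 was higher and 1 lower of 8 on day 7 (0.02). Apoe, a lipoprotein ligand of Trem2, was higher on day 3 with a ratio of 5.64 (4.66 to 6.90) and on day 7 with 4.05 (3.31 to 5.00), and was lower on day 1 with 0.440 (0.316 to 0.608). Equal free RNA would give 271 of its 559 CPM in the sham control. Cd33, an inhibitory receptor counteracting Trem2, was lower on day 1 with a ratio of 0.258 (0.141 to 0.451) and on day 7 with 0.470 (0.296 to 0.736).

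Of the other scavenger receptors, 1 of 3 was higher in microglia-like nuclei on day 1, 1 of 4 on day 3 and 1 of 3 on day 7. Msr1, scavenger receptor A, had 6 UMIs in the sham control and 71 on day 1, a ratio of 10.1 (4.40 to 28.3), with 40.8% of the day 1 UMIs in 1 nucleus. Colec12 had 0 UMIs in the sham control and 20 in 7 nuclei on day 7, at least 5.32-fold higher against the floor, with an exact interval from 3.94 and 40% of the day 7 UMIs in 1 nucleus. Sirpa, the receptor for the signal Cd47 that holds back engulfment, was lower on day 1 with a ratio of 0.415 (0.303 to 0.564).

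The engulfment machinery had none of 8 measured genes past 2-fold on day 1, and 1 of 9 on day 3 and 1 of 7 on day 7. That gene was Abca1, a lipid exporter needed after engulfment, with 74 UMIs in the sham control and 194 on day 7, a ratio of 2.09 (1.59 to 2.77). None of the 4 measured opsonin receptors passed 2-fold on any day, with median log2 ratios of 0.30, 0.61 and 0.34, and no relative of Megf10 reached 20 UMIs.

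In astrocyte-like nuclei the list genes past 2-fold were few and mostly of low count. Tyro3, the remaining TAM receptor, had 10 UMIs in the sham control and 14 on day 1, a ratio of 2.39 (0.985 to 6.00). Adam17, a protease that sheds receptors, had a ratio of 0.379 on day 1 (0.128 to 0.936), and Apoe a ratio of 0.454 (0.415 to 0.496). Elmo1, an activator of the Rac pathway of engulfment, was lower on day 3 with 0.404 (0.275 to 0.585), while its ratios were 1.33 on day 1 (0.956 to 1.83) and 1.41 on day 7 (1.04 to 1.91). Inpp5d, a microglial phosphatase that dampens Trem2 signalling, had 5 UMIs in the sham control, 15 on day 3 and 27 on day 7, with ratios of 2.48 (0.856 to 8.71) and 7.95 (3.02 to 26.5), while the summed microglia markers in astrocyte-like nuclei stood at 202, 247, 331 and 649 CPM in time order.

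Across 43 class sums (12 classes, up to 4 libraries each), the genes with the most similar pattern were found for the 7 genes with at least 100 UMIs (all but Clec7a and Cd36) by the Pearson correlation of log2(CPM + 1) among 15317 genes. The class sums share libraries and differ in depth, so the values are descriptions. Trem2 was most like Tbxas1 (0.91), Ptprc (0.88) and Ctss (0.87), and Tyrobp most like Tbxas1 (0.87), C1qa (0.86) and Fcer1g (0.83). Trem2 and Tyrobp correlated at 0.80 with each other. Mertk was most like Zfp36l2 (0.87), Crlf3 (0.84) and Gna13 (0.84), genes like Axl included Pdlim5 (0.88) and Marc2 (0.86), and Megf10 was most like Cdh19 (0.83), Fam196a (0.81) and Phlpp1 (0.80). Pros1 was most like 1700112E06Rik (0.86), Dek (0.85) and Rnf213 (0.85). Gas6 had the loosest match of the 7, with Plxnb2 (0.77), Layn (0.76) and Fhad1 (0.75), and its correlation with its receptors was 0.23 for Mertk and 0.30 for Axl, whereas Pros1 correlated at 0.65 with Mertk and 0.60 with Axl.

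In the GRCm38 assembly, with positions from GENCODE vM21, Mertk spans chr2:128698956-128802894 on the plus strand, Axl chr7:25757273-25788705 on the minus strand, Gas6 chr8:13465374-13494490 on the minus strand and Pros1 chr16:62854307-62929346 on the plus strand. Trem2 spans chr17:48346401-48354147 and Tyrobp chr7:30413760-30417585, both on the plus strand, and Clec7a chr6:129461591-129472779 and Cd36 chr5:17781690-17888801, both on the minus strand. Counts took in exons and introns, and 2 of the 9 genes overlap another gene: Mertk an antisense gene (Gm14011) and a small nucleolar RNA (Gm23172), and Gas6 the gene Tmem255b on the other strand. Whether counting used the strand is not given in the sources used here, so the levels of Mertk and Gas6 may include reads of those genes.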

How the data were processed

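Nuclei of 4 libraries were measured by droplet single-nucleus RNA-seq. The authors deposited raw UMI counts of 46983 genes for every barcode, made per the labels with STAR 2.7.3a solo (GeneFull, exons and introns) on GRCm38 with GENCODE vM8, without a barcode filter or removal of free RNA. Nuclei were called from these counts with an emptyDrops test (free RNA from barcodes of at most 1000 UMIs, 10000 Monte Carlo draws, false discovery rate 0.001), and Scrublet doublets (0.8% per 1000 nuclei) were removed. This left 1018 to 3090 nuclei per library, with 52.1% to 60.5% of a library's UMIs in called nuclei. Libraries were integrated with Seurat 5.3.0 (SCT, 30 components, resolution 0.8) on 2971 of 3000 variable features, leaving out the 9 genes and the pathway lists. The 32 clusters were named from 18 marker lists (at least 3 markers; mean log2 fold of the 5 highest at least 1 and 0.5 ahead of the next list), and 4 stayed unnamed.

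UMIs were summed per class and library. Levels have exact Poisson intervals, ratios exact conditional binomial intervals and shares Clopper-Pearson intervals (95%). They cover counting error only, and UMIs of 1 nucleus are not independent. A ratio counted as past 2-fold with at least 20 UMIs in both sums, and for this a sum under 3 UMIs was set to a floor of 3. The ratio code was tested on simulated data. Named were the 9 genes, up to 3 list genes with the highest and lowest ratio past 2-fold per class and day in microglia-like and astrocyte-like nuclei, and the 3 genes most like each of the 9 with at least 100 UMIs. Apoe on day 1 in microglia-like nuclei was named after its value was seen. The 9 genes, lists and markers were chosen with earlier results of these data known. Alternatives were 12 planned (calling, doublets, TMM of edgeR 4.0.16, DESeq2 1.42.0 size factors, free RNA subtracted, thinning to 1000 UMIs, mean over nuclei, the top nucleus left out, resolution 1.2, no integration, at least 10 UMIs, no minimum) and 2 added after seeing the data. Some genes that the naming rule selected are not reported here.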

Additional observations from a re-analysis of the deposited data

Results flagged for a closer look

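Some ratios to the sham control lay with their whole counting interval above 1 in one class and below 1 in another on the same day, also without the nucleus that held most UMIs of the gene. The difference between classes was not tested, since each group had 1 library. For Mertk on day 1 the ratio was 0.581 in microglia-like and 1.66 in striatal-projection-neuron-like nuclei. The second came from 72 UMIs in each of both libraries and was 1.07 without integration. For Mertk on day 3 it was 1.42 in astrocyte-like and 1.39 in striatal-projection-neuron-like nuclei, against 0 in ependymal-like nuclei. There 23 UMIs in the sham control and 0 on day 3 were counted, in classes of 17 and 20 nuclei. The summed astrocyte markers of that class were at 3756 CPM in the sham control and 1911 CPM on day 3. Their part in the difference was not tested.

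For Pros1 on day 3 the ratio was 0.645 in microglia-like nuclei, against 2.66 in oligodendrocyte-like and 2.62 in striatal-projection-neuron-like nuclei. For Pros1 on day 7 it was 0.667 in microglia-like and 3.27 in oligodendrocyte-like nuclei.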

How the results depend on the processing

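No paired analysis was possible because each group held 1 library and the ratios come from no test. Of 1390 alternative values of 146 ratios, 1352 stayed within the counting interval of the reported ratio, 36 moved out of it and 2 belonged to ratios whose interval excluded 1 and crossed to the other side of 1: Mertk in astrocyte-like nuclei on day 1 (0.908 with nuclei thinned to 1000 UMIs) and Mertk in GABAergic-interneuron-like nuclei on day 1 (0.999 without the nucleus with most UMIs). In all, 57 of the 146 ratios had a value on the other side of 1 under some alternative, and for the others of these 57 the reported interval included 1. Thinning gave 21 of the moved values; the cause was not tested. All ratios stayed in place under both other scalings. The number of the 9 genes past 2-fold changed as follows. In microglia-like nuclei it was 0 instead of 1 on day 3 with thinning or without the top nucleus, which leave fewer UMIs, and on day 7 it was 1 with a minimum of 10 UMIs and 2 with none, instead of 0. In astrocyte-like nuclei it was 1 instead of 0 on day 1 without integration, with 10 UMIs and with no minimum. On day 3 it was 0 instead of 1 with free RNA subtracted, thinning or without the top nucleus, and 2 with 10 UMIs or no minimum. On day 7 it was 1 with no minimum. In oligodendrocyte-like nuclei it was 0 with thinning on all 3 days, 2 on day 1 without integration, 1 on day 3 as a mean over nuclei or without integration, 3 instead of 2 on day 3 with 10 UMIs or no minimum, and 2 on day 7 with either. In free RNA it was 3 instead of 2 on day 3 in barcodes of more than 100 UMIs. With free RNA subtracted, microglia-like nuclei held 64.1% of the Trem2 and 51.2% of the Tyrobp UMIs. Depth limits Clec7a (11 UMIs), Axl (16 UMIs), Megf10 (27 UMIs) and Cd36 (43 UMIs) most in microglia-like nuclei.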
